A study of Mus musculus with 6 samples.

Results

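Transcripts of 9 genes of transforming growth factor beta (TGF-beta) signalling were compared in fibrotic mouse liver with and without alendronate nanogels. The 9 genes were Tgfb1, Tgfb2, Tgfb3, Tgfbr2, Smad7, Tgfbi, Ccn1, Ccn2 and Thbs1. They were chosen by symbol, with earlier results of these data known. All 9 were found among the 41388 gene identifiers of the count table and passed the filter on low counts. Every mouse was of the BALB/c strain and had liver fibrosis from 5 weeks of carbon tetrachloride (CCl4), a liver toxin, so the controls carried the injury too. The AL/NP group (3 libraries, called Al/NP high in the labels) received nanoparticles with alendronate, a bisphosphonate, at 4 mg/kg in 2 injections per week over the last 2 weeks. The other group (3 libraries) was a fibrotic control labelled untreated. The labels give no age or sex and do not say whether controls were injected. Neither healthy liver nor an empty carrier was among the samples. Drug, carrier and injection therefore cannot be told apart. Nothing in the labels states that each replicate was a separate animal, and p-values measure only the spread between these libraries.

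TGF-beta ligands are secreted in a latent form, held by their own propeptide and by latent TGF-beta binding proteins, and are released by integrins, proteases or thrombospondin. The active ligand binds the type II receptor, which recruits and phosphorylates the type I receptor. The receptor complex then phosphorylates Smad2 and Smad3, which enter the nucleus with Smad4. In liver, this pathway is known for turning stellate cells into matrix-producing myofibroblasts. Matricellular proteins such as Ccn1, Ccn2 and Thbs1 are secreted into the matrix and modulate cell behaviour rather than forming fibres. Their genes also respond to serum response factor and to the YAP/TEAD pathway.

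The libraries held 30554483 to 39838428 counts. At the 3-count limit a gene would stand at 0.0753 to 0.0982 CPM (counts scaled to the library total), a limit that covers counting error only. The mitochondrial chromosome took 17.0%, 14.2% and 11.96% of counts in AL/NP replicates 1 to 3 and 16.2%, 19.8% and 26.7% in control replicates 1 to 3. Control replicate 3 stood apart, with a scaling factor of 0.809 against 0.937 to 1.13 in the other libraries. It lay at 57.9 on the first principal component and AL/NP replicate 1 at -53.0, the opposite end, with the other libraries between -21.3 and 16.7. Hepatocyte markers, which check the labelled tissue, summed to 50475 to 59286 CPM with AL/NP and 60427 to 77840 CPM in controls, and none of the 8 was at 0. Levels of genes are CPM after TMM scaling, a correction for library composition. A log2 fold change above 0 means that a gene was higher with AL/NP.

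Of the 9 genes, 5 had a higher scaled level in every AL/NP library than in any control. These were Tgfb1, Tgfb2, Tgfbi, Ccn1 and Ccn2, with fold changes between 1.75 and 3.57. In all tested genes, groups did not overlap in this direction in 14.5%. None of the 9 had every AL/NP library below every control, against 15.0% of tested genes. The edgeR quasi-likelihood test called 0 of the 9 genes at an adjusted p of 0.05, where it called 0.0816% of 15939 tested genes (13 genes). DESeq2 called 4 of the 9, all higher (Tgfb1, Tgfbi, Ccn1 and Ccn2), against 5.07% of genes in either direction and 2.59% called higher. At an unadjusted p under 0.05, edgeR had 5 of the 9 higher (Tgfb1, Tgfbi, Ccn1, Ccn2 and Thbs1) and 0 lower, against 9.37% of tested genes higher and 10.3% lower. The median log2 fold change of the 9 genes was 0.88, and that of all tested genes was -0.00025.

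**Figure D1:**
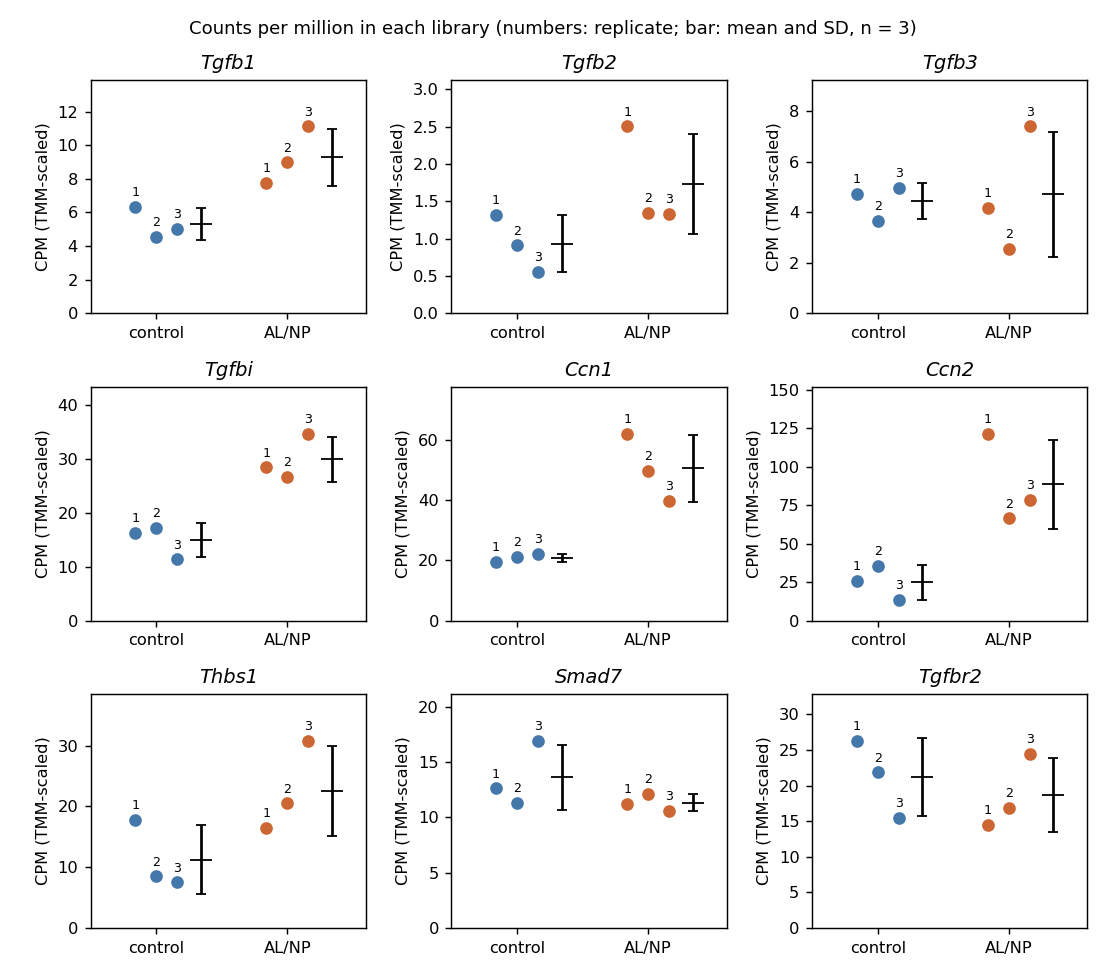
Each panel plots 1 gene, with TMM-scaled CPM on a linear axis from 0 and the groups side by side. Points are libraries with their replicate number, and bars are the mean and SD of 3 libraries. For Ccn1 the controls lie between 19.5 and 22.0 and the AL/NP libraries between 39.7 and 61.9, whereas the groups overlap for Tgfb3, Thbs1, Smad7 and Tgfbr2.

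Sequence from the RefSeq promoter table (GRCm38.p6, the build of the count data) was searched for 5 of the 9 genes. The windows of the 4 genes among them whose groups did not overlap are shown because those genes were higher together. Each runs from 250 bases before to 50 bases after the start site. Capitals mark matches on either strand to GGGCGG (the SP1 box), GGAATG (the TEAD site) and CAGACA (the SMAD box). On the other strand, the SP1 box reads CCGCCC and the TEAD site CATTCC.
Ccn1, chr3:145649936-145650235, minus strand: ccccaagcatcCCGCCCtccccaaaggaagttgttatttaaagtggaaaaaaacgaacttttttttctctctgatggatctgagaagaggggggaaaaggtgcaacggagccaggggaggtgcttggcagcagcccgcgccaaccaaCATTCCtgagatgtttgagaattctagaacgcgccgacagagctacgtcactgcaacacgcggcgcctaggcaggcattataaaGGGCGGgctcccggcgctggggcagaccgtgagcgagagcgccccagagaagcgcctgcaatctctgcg
Tgfb1, chr7:25686752-25687051, plus strand: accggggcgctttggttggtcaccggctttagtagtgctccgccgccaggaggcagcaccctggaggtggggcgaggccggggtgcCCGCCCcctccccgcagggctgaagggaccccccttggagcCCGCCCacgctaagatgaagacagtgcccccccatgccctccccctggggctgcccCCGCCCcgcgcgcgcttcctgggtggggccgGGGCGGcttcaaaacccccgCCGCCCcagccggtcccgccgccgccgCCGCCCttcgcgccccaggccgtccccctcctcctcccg
Tgfb2, chr1:186705940-186706239, minus strand: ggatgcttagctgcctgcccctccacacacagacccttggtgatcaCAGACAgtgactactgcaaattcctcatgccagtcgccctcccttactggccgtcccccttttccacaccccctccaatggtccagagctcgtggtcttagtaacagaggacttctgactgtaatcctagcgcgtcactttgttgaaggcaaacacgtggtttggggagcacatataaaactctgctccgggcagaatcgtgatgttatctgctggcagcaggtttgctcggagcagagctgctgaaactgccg
Tgfbi, chr13:56609336-56609635, plus strand: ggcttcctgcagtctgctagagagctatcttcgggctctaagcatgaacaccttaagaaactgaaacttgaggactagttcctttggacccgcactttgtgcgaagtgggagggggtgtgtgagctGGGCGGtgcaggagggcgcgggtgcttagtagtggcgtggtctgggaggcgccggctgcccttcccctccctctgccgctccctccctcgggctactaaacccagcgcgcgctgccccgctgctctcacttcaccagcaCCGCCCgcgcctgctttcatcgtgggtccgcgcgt

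The Ccn1 window had the single TEAD match among the 5 windows, starting at position -103 from the start site. Such a match was present in 14.7% of the 32851 windows in the table. SP1 boxes numbered 6 in the Tgfb1 window, 2 in that of Ccn1 and 2 in that of Tgfbi, where 35.7% of all windows held at least 1. The Tgfb1 window was 77.0% G or C, against a median of 52.7% over all windows. The SMAD box was in the Tgfb2 window once and in none of the other 4, and 21.0% of all windows held it. Smad7, Tgfb3, Ccn2 and Thbs1 were not searched for any motif. None of the 5 windows held the AP-1 site TGANTCA (7.81% of all windows) or the CArG box of serum response factor (1.63%). Tgfbr2 had no match to any of these motifs. No pair of the motifs overlapped in the printed windows.

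The ligands differed among themselves. Tgfb1 (chromosome 7, 25687002 to 25705077, protein coding, 8 exon blocks) encodes the ligand most studied in liver fibrosis. It measured 7.75, 8.97 and 11.1 CPM in AL/NP replicates 1 to 3 and 6.35, 4.56 and 5.03 CPM in control replicates 1 to 3. The groups did not overlap, and AL/NP replicate 3 was the highest. The log2 fold change of Tgfb1 was 0.81 (SE 0.21, 95% interval 0.32 to 1.29), with an edgeR adjusted p of 0.14 and a DESeq2 adjusted p of 0.0274.

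Tgfb2 (chromosome 1, 186622792 to 186705989) encodes a ligand that binds the type II receptor poorly without the co-receptor betaglycan. It was the least abundant of the 9, with 72, 49 and 46 counts in AL/NP replicates 1 to 3 and 46, 33 and 18 in control replicates 1 to 3. After scaling these were 2.502, 1.35 and 1.33 CPM against 1.32, 0.911 and 0.559 CPM. The lowest AL/NP library and the highest control were nearly level, so the non-overlap rests on a small gap. For Tgfb2 the log2 fold change was 0.88 (SE 0.41, 95% interval -0.053 to 1.82, edgeR adjusted p = 0.27), and it was 0.52 without AL/NP replicate 1.

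Tgfb3 (chromosome 12, 86056745 to 86079041), the third ligand, measured 4.17, 2.56 and 7.40 CPM with AL/NP and 4.74, 3.65 and 4.97 CPM in controls. AL/NP held both the highest and the lowest library, and the groups overlapped. Tgfb3 had a log2 fold change of 0.082 (SE 0.36, 95% interval -0.74 to 0.91, edgeR adjusted p = 0.92). Leaving out AL/NP replicate 3 gave -0.41 and leaving out AL/NP replicate 2 gave 0.38, so its sign depended on single libraries. On the opposite strand, Gm37804 and Gm48008 share 163 and 257 exon bases with Tgfb3 and were absent from the count table, while Ttll5 shares 0. With the strand setting of the counting unknown, reads from those stretches cannot be assigned to one strand.

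Per kilobase of exon, the 3 ligands together stood at 3.53 ± 0.97 RPKM (SD, n = 3) with AL/NP and 2.53 ± 0.38 RPKM in controls. RPKM here is the scaled CPM divided by exon length in kilobases. Tgfb1 made up 48.0%, 64.3% and 47.7% of the ligand level in AL/NP replicates 1 to 3, and 43.6%, 42.3% and 38.9% in control replicates 1 to 3. Tgfb3 was the larger part in every control library, at 48.5%, 50.4% and 57.3%, and the smaller of these 2 ligands in every AL/NP library, at 38.5%, 27.3% and 47.3%. The order of these 2 depends on the exon lengths used, 5042 bases for Tgfb1 and 3383 for Tgfb3. In raw counts Tgfb1 exceeded Tgfb3 in every control library, at 221, 165 and 162 against 165, 132 and 160. The log2 ratio of Tgfb1 to Tgfb3, which does not depend on library scaling, was 0.32, 1.23 and 0.011 with AL/NP and -0.15, -0.25 and -0.56 in controls. Its difference of means was 0.84, and an exact two-sided permutation test gave p = 0.1, the smallest that 3 against 3 libraries allow (0.2 adjusted over the 3 ratios tested). Without AL/NP replicate 2 the difference was 0.49.

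**Figure D2:**
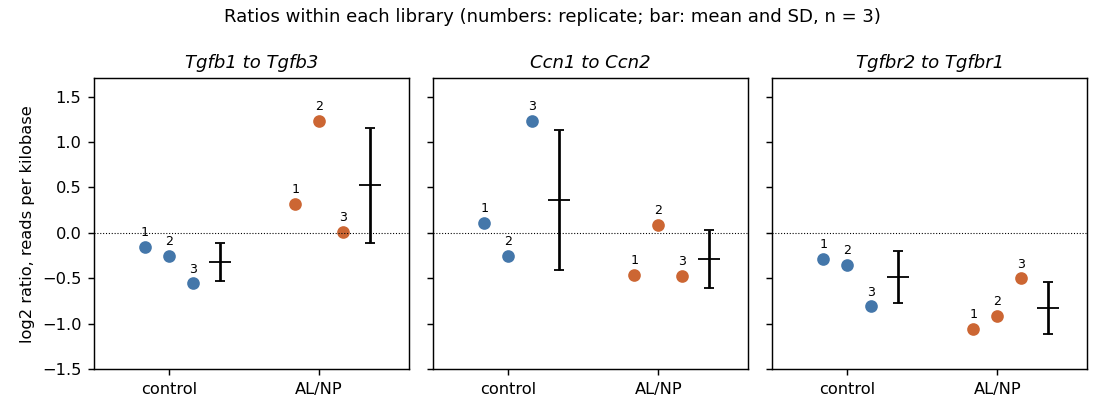
The 3 panels plot the log2 ratio of reads per kilobase within each library for Tgfb1 to Tgfb3, Ccn1 to Ccn2 and Tgfbr2 to Tgfbr1. Points are libraries with their replicate number, bars are the mean and SD of 3 libraries, and the dotted line marks equal levels. For Tgfb1 to Tgfb3 all AL/NP libraries lie above 0 and all controls below it, whereas the other 2 ratios overlap between groups. The position of 0 depends on the exon lengths used.

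Tgfbr2 (chromosome 9, 116084293 to 116175360) encodes the type II receptor, the kinase that binds ligand first. It measured 14.5, 16.9 and 24.5 CPM with AL/NP and 26.3, 21.8 and 15.4 CPM in controls. Each group spread over most of the range of the other. Its log2 fold change was -0.19 (SE 0.25, 95% interval -0.75 to 0.38, edgeR adjusted p = 0.69) and ran from -0.43 without AL/NP replicate 3 to -0.0022 without control replicate 1. Tgfbr1, the type I receptor, measured 25.8 ± 1.78 CPM (SD, n = 3) with AL/NP and 23.2 ± 2.15 CPM in controls (log2 fold change 0.15, SE 0.14, edgeR adjusted p = 0.55). The log2 ratio of Tgfbr2 to Tgfbr1 per length was -0.83 ± 0.29 (SD, n = 3) with AL/NP and -0.49 ± 0.28 in controls (difference -0.34, exact permutation p = 0.2).

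Smad7 (chromosome 18, 75367529 to 75395935) encodes the inhibitory Smad, which blocks the type I receptor and is itself induced by TGF-beta as feedback. It measured 11.3, 12.1 and 10.6 CPM with AL/NP and 12.6, 11.3 and 16.9 CPM in controls. The AL/NP libraries lay close together, and control replicate 3 was the highest library. Smad7 had a log2 fold change of -0.26 (SE 0.18, 95% interval -0.68 to 0.15, edgeR adjusted p = 0.43). With control replicate 3 left out this was -0.08.

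Tgfbi (chromosome 13, 56609523 to 56639562) encodes an extracellular matrix protein that binds integrins and was named for its induction by TGF-beta. Its levels were 28.5, 26.8 and 34.7 CPM with AL/NP and 16.3, 17.3 and 11.4 CPM in controls. The lowest AL/NP library was well above the highest control. Tgfbi had a log2 fold change of 1.003 (SE 0.19, 95% interval 0.57 to 1.44), with an edgeR adjusted p of 0.0962 and a DESeq2 adjusted p of 0.0013. With each library left out in turn it lay between 0.84 and 1.10.

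Ccn1 (chromosome 3, 145646976 to 145649981), formerly Cyr61, encodes a matricellular ligand of integrins that is known to drive senescence of myofibroblasts. It measured 61.9, 49.6 and 39.7 CPM with AL/NP and 19.5, 21.0 and 22.0 CPM in controls. The controls were the most even of any of the 9 genes, with a coefficient of variation of 6.01%. Ccn1 had the lowest p of the 9, at a log2 fold change of 1.27 (SE 0.18, 95% interval 0.86 to 1.69, unadjusted p = 7.21e-05, edgeR adjusted p = 0.0617). DESeq2 gave an adjusted p of 2.36e-06.

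Ccn2 (chromosome 10, 24595442 to 24598683), formerly Ctgf, encodes connective tissue growth factor, a classical marker of TGF-beta activity in fibrotic tissue. Its levels were 121, 66.4 and 78.2 CPM with AL/NP and 25.6, 35.5 and 13.3 CPM in controls. AL/NP replicate 1 was the highest and control replicate 3 the lowest. Ccn2 had the largest log2 fold change of the 9 genes, 1.83 (SE 0.36, 95% interval 1.001 to 2.67, edgeR adjusted p = 0.0998, DESeq2 adjusted p = 4.91e-05). Leaving out control replicate 3 gave 1.53. Gm15270, on the opposite strand, shares 665 of the 2861 exon bases of Ccn2 and had 0.732 counts per 100 of Ccn2. With the strand setting unknown, reads from that stretch cannot be assigned to a strand either.

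Ccn1 and Ccn2 did not keep a fixed ratio. Per length, the log2 ratio of Ccn1 to Ccn2 was -0.47, 0.084 and -0.48 in AL/NP replicates 1 to 3 and 0.11, -0.26 and 1.23 in control replicates 1 to 3. Control replicate 3 stood far from the other controls. The difference of means was -0.65 (exact two-sided permutation p = 0.2), and it was -0.21 without control replicate 3. The other CCN genes were at much lower levels. Ccn3, Ccn4 and Ccn5 had log2 fold changes of -0.87, -0.71 and 0.44 (edgeR adjusted p 0.29, 0.26 and 0.502), at no more than 0.373 RPKM in either group. Ccn6 had 11 counts over the 6 libraries and was not tested.

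Thbs1 (chromosome 2, 118111876 to 118127133) encodes thrombospondin 1, a matricellular protein of platelets and stromal cells that can release latent TGF-beta. It measured 16.4, 20.5 and 30.8 CPM with AL/NP and 17.7, 8.48 and 7.49 CPM in controls. Control replicate 1 lay above AL/NP replicate 1, so the groups overlapped. For Thbs1 the log2 fold change was 1.01 (SE 0.36, 95% interval 0.19 to 1.82, edgeR adjusted p = 0.198, DESeq2 adjusted p = 0.0703). Leaving out control replicate 1 gave 1.498, and leaving out AL/NP replicate 3 gave 0.72. Thbs2 and Thbs3 had log2 fold changes of -0.17 and -0.087 (edgeR adjusted p 0.84 and 0.92). Thbs4 was at -2.03 (SE 0.55, edgeR adjusted p = 0.14) on only 68 counts over the 6 libraries.

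**Figure D3:**
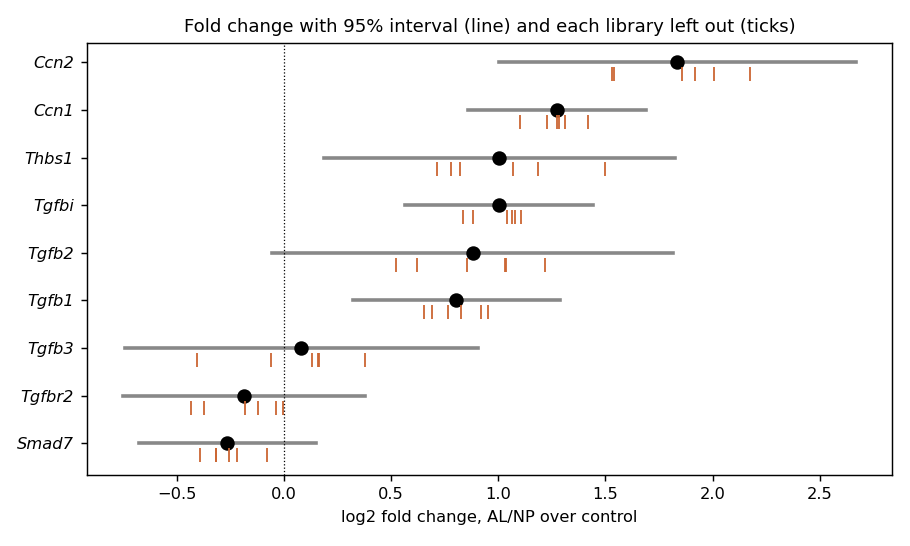
The log2 fold change of AL/NP over control is plotted for the 9 genes, with dots for the estimate from 6 libraries, lines for its 95% interval and ticks for the value with each library left out. The intervals of Ccn2, Ccn1, Thbs1, Tgfbi and Tgfb1 lie above 0, and those of Tgfb2, Tgfb3, Tgfbr2 and Smad7 include it.

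Levels can be ordered across genes only per length. In controls the order of mean RPKM was Ccn1 (10.3), Ccn2 (8.68), Tgfbi (3.97), Smad7 (3.01), Tgfbr2 (2.59), Thbs1 (1.85), Tgfb3 (1.32), Tgfb1 (1.05) and Tgfb2 (0.161). With AL/NP it was Ccn2 (31.0), Ccn1 (24.98), Tgfbi (7.95), Thbs1 (3.71), Smad7 (2.51), Tgfbr2 (2.27), Tgfb1 (1.84), Tgfb3 (1.39) and Tgfb2 (0.298). Thbs1 moved from the sixth place to the fourth, ahead of Smad7 and Tgfbr2, and the pairs Ccn1 with Ccn2 and Tgfb1 with Tgfb3 traded places. In controls, neighbours in the order overlapped over libraries except Ccn2 with Tgfbi and Tgfb1 with Tgfb2. With AL/NP, neighbours overlapped for Ccn2 with Ccn1, Smad7 with Tgfbr2, Tgfbr2 with Tgfb1, and Tgfb1 with Tgfb3.

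The 9 genes were not highest in the same AL/NP library. Replicate 1 was the highest of the AL/NP libraries for Ccn1, Ccn2 and Tgfb2, and replicate 3 for Tgfb1, Tgfb3, Tgfbi, Thbs1 and Tgfbr2. Across the 6 libraries, Pearson's r of log2 CPM was 0.95 for Tgfb1 with Thbs1, 0.94 for Tgfbi with Ccn2 and 0.88 for Ccn1 with Ccn2. Smad7 ran opposite to Tgfbi (-0.83) and Ccn2 (-0.82). These values describe 6 libraries that also differ by group, depth and composition.

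Among 9640 named genes with a mean of at least 5 CPM, those most like Tgfb1 over the 6 libraries included Lcp1 (r = 0.995) and Itgam (0.98). Lcp1, or L-plastin, is an actin-bundling protein of leukocytes, and Itgam is the myeloid integrin CD11b. Those most like Ccn1 were Aldoa (0.995), Gltpd2 (0.99) and Crip2 (0.99). Those most like Ccn2 were the pseudogene Chchd2-ps (0.998), Fkbp5 (0.996) and Ngdn (0.996). With so few libraries and so many candidates, high values of r arise for many genes, and they are given as a description.

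Markers of several cell types moved with the groups, and in whole liver more cells of a type and more RNA per cell cannot be told apart. Summed macrophage markers stood at 412.9 to 643.5 CPM with AL/NP and 209 to 320.03 CPM in controls, with 7 of 10 markers higher and 0 lower at an unadjusted p under 0.05. Over all tested genes, 9.37% were higher and 10.3% lower at that p. Neutrophil markers stood at 35.3 to 76.8 CPM against 19.4 to 34.98 CPM (4 of 7 tested higher, 0 lower). Platelet markers, which matter for Tgfb1 and Thbs1 as platelets store both proteins, stood at 13.4 to 21.5 CPM against 8.90 to 13.0 CPM, with 3 of 8 tested and 1 higher. None of the 3 tested platelet markers separated the groups by itself. For the neutrophil and platelet sums, the lowest AL/NP library and the highest control were nearly level. Hepatocyte markers went the other way: their sum was lower in every AL/NP library than in any control. The gap was again small, with 59286 CPM in AL/NP replicate 3 and 60427 CPM in control replicate 2. The median log2 fold change over the 8 hepatocyte markers was -0.28. At an unadjusted p under 0.05, 2 of them were lower (Ttr and Tat) and 1 was higher (Serpina1c). No listed marker of these 4 cell types was at 0 over the 6 libraries. The part of these cells in the values of the 9 genes was not tested.

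Markers of matrix-producing cells did not separate the groups. Stellate cell markers summed to 201.7 to 248.4 CPM with AL/NP and 186 to 251 CPM in controls (1 of 10 higher, 0 lower at an unadjusted p under 0.05). At that p, 9.37% of all tested genes were higher and 10.3% lower. Myofibroblast markers ranged from 213 to 566 CPM and from 276.02 to 765 CPM, with 0 of 8 at an unadjusted p under 0.05. Acta2, smooth muscle actin, had a log2 fold change of -0.48 (SE 0.38), and Col1a1, a chain of type I collagen, one of -0.68 (SE 0.604; edgeR adjusted p 0.49 and 0.54). Control replicate 3 had the highest myofibroblast sum and Col1a1 (219 CPM) but the lowest Ccn2, Tgfb2, Tgfbi and Thbs1 of the 6 libraries. Endothelial markers stood at 156 to 176 CPM and 134 to 187 CPM, with 0 of 8 at that p.

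**Figure D4:**
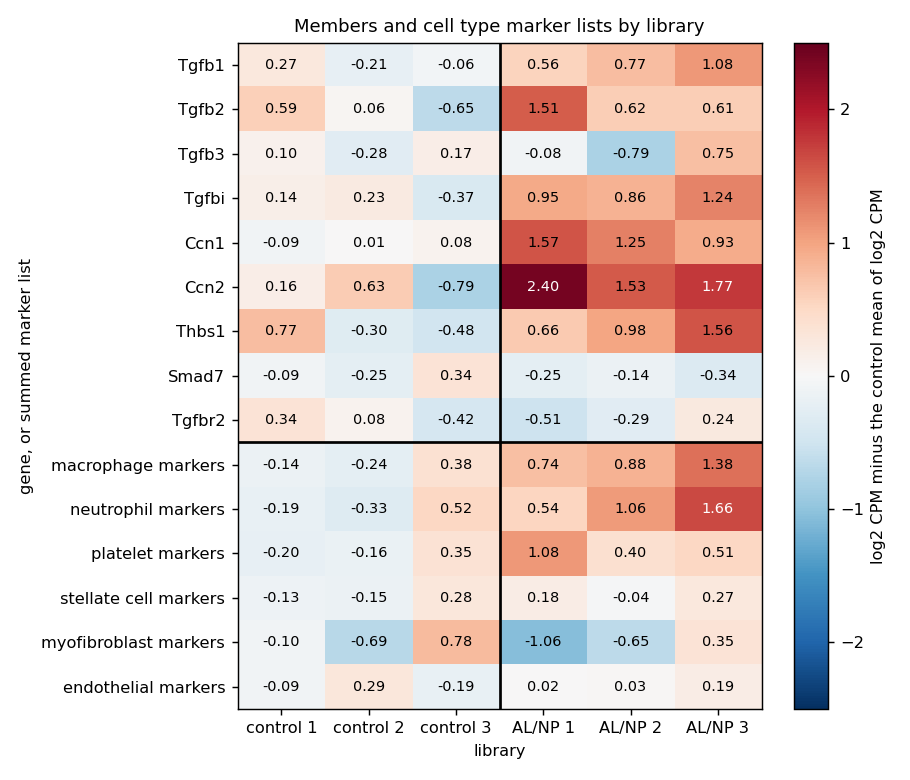
The colour and number in each cell give log2 CPM minus the control mean of log2 CPM, for the 9 genes above the line and for 6 summed marker lists below it, with controls on the left. Macrophage and neutrophil markers are highest in AL/NP replicate 3, as is Tgfb1. Among controls they are highest in replicate 3 (0.38 and 0.52), where Tgfb1 is at -0.064, and Tgfb1 is highest in replicate 1 (0.27). Ccn2 is highest in AL/NP replicate 1 (2.40), where the myofibroblast markers are lowest (-1.06).

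The rest of the pathway was read from lists of genes grouped by role, and some of the lists share genes. None of their members was called by edgeR, and the counts that follow are at an unadjusted p under 0.05, for which 9.37% of all tested genes were higher and 10.3% lower. DESeq2 called Itgb3, Smad6, Pmepa1, Cdkn1a, Ajuba, Ankrd1, 5 immediate early genes (Klf2, Klf4, Klf6, Ier5 and Srf) and 3 ligands of the wider family (Inhbe, Gdf15 and Bmp7), and 0 of the receptors or other matricellular genes. Ier5 and Srf were named after their values were seen. Of 18 tested genes of ligand latency and activation, 4 were higher and 0 lower (median log2 fold change 0.16). Itgb3, the beta chain of an integrin that binds latent TGF-beta and of the platelet integrin, measured 4.31 ± 0.57 CPM (SD, n = 3) with AL/NP and 1.87 ± 0.40 CPM in controls (log2 fold change 1.204, edgeR adjusted p = 0.103). Bgn and Dcn, proteoglycans that bind TGF-beta, were at 0.57 and 0.52 (edgeR adjusted p 0.23 and 0.204), and at 0.28 and 0.29 without AL/NP replicate 3. Ltbp1, which stores latent ligand in the matrix, measured 2.84 ± 1.41 and 2.61 ± 1.34 CPM and changed sign when single libraries were left out.

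Receptors of the superfamily other than Tgfbr2 had 0 of 10 higher and 1 lower (median -0.11), the lower one being Acvr1 at -0.41 (edgeR adjusted p = 0.25). Of 16 Smad mediators and inhibitors, 2 were higher and 1 lower (median -0.013). Smad6, the inhibitory Smad of BMP signalling, measured 6.20 ± 0.34 CPM (SD, n = 3) with AL/NP and 3.72 ± 0.62 CPM in controls (log2 fold change 0.74, edgeR adjusted p = 0.15). Skil, a repressor of Smad complexes that is itself a TGF-beta target, was at 0.52 and Smurf1, a ubiquitin ligase for receptors and Smads, at -0.33 (edgeR adjusted p 0.23 and 0.25). The signal-carrying Smad2, Smad3 and Smad4 had log2 fold changes of 0.36, -0.15 and 0.16 (edgeR adjusted p 0.37, 0.56 and 0.58).

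Of 23 tested TGF-beta response genes, 6 were higher and 1 lower (median 0.27). Skil is in this list too and counts as higher in both. Pmepa1, an induced feedback inhibitor of Smad signalling, measured 11.6, 11.9 and 9.81 CPM with AL/NP and 7.52, 6.13 and 7.49 CPM in controls. Its groups did not overlap (log2 fold change 0.66, SE 0.17, edgeR adjusted p = 0.14). Timp1, a metalloproteinase inhibitor, and Cdkn1a, the cell cycle inhibitor p21, were at 0.87 and 1.35 (edgeR adjusted p 0.19 and 0.196), and Cdkn1a was at 0.87 without AL/NP replicate 1. Nox4, an oxidase linked to myofibroblast activation, was in the other direction at 0.739 ± 0.265 CPM (SD, n = 3) with AL/NP and 1.92 ± 0.901 CPM in controls (log2 fold change -1.36, edgeR adjusted p = 0.17).

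Matricellular genes other than Ccn1, Ccn2 and Thbs1 had 0 of 16 tested higher and 1 lower, Thbs4 (median -0.069). YAP/TEAD targets, a list that also holds Tgfb2, had 2 of 17 higher and 0 lower (median 0.098). These were Ajuba, a LIM-domain protein that restrains the LATS kinases, at 0.98, and Ankrd1, a cardiac ankyrin repeat protein, at 1.54 (edgeR adjusted p 0.0783 and 0.0903). Ankrd1 measured 5.49, 4.62 and 7.17 CPM with AL/NP and 2.58, 1.74 and 1.62 CPM in controls.

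Immediate early genes, which are induced within minutes by serum, stress or tissue handling as Ccn1 is, had 11 of 23 tested higher and 2 lower (median 0.74). The Krüppel-like factors Klf2, Klf4 and Klf6 were at 1.03, 1.62 and 0.84 (edgeR adjusted p 0.0783, 0.097 and 0.0978). Egr1 and Zfp36 were in the other direction, at -0.98 and -0.57 (edgeR adjusted p 0.18 and 0.198). The summed level of the immediate early list was 885, 642 and 504 CPM in AL/NP replicates 1 to 3. In control replicates 1 to 3 it was 588, 533 and 580 CPM. The sum was highest in AL/NP replicate 1, where Ccn1 and Ccn2 were also highest. In AL/NP replicate 3 the sum was below every control, while Ccn1 (39.7 CPM) and Ccn2 (78.2 CPM) were above every control. The part of immediate early induction in the Ccn1 and Ccn2 values was not tested. Among BMP, activin and inhibin ligands, 3 of 13 tested were higher and 2 lower (median 0.071). Inhbe, a liver activin chain, measured 53.95 ± 1.46 CPM (SD, n = 3) with AL/NP and 20.1 ± 6.68 CPM in controls (log2 fold change 1.43, edgeR adjusted p = 0.0783). Gdf15 and Gdf10 were at 1.32 and 0.62, and Bmp7 and Bmp2 at -1.24 and -0.48, with edgeR adjusted p from 0.14 to 0.21. The AL/NP libraries had 34.3, 10.2 and 11.1 CPM of Gdf15, and leaving out the first of them, replicate 1, gave 0.53. Gdf10 was at 0.398 without control replicate 1.

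**Figure D5:**
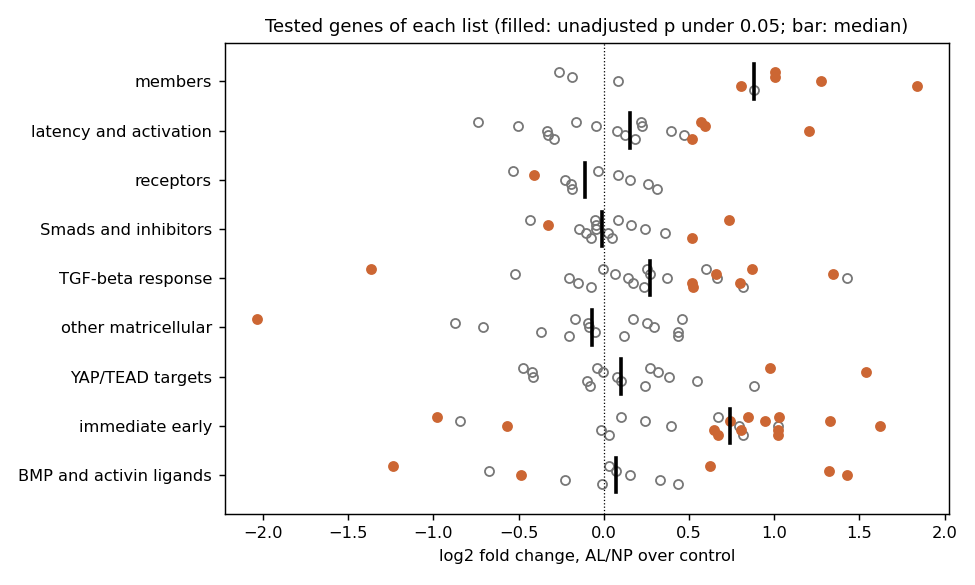
Each point is the log2 fold change of 1 tested gene, by list, filled where the unadjusted p of edgeR is under 0.05, and bars mark list medians. Among the lists plotted, the 9 genes and the immediate early genes have the highest medians (0.88 and 0.74). Receptors, Smads, other matricellular genes, YAP/TEAD targets and BMP and activin ligands have medians between -0.11 and 0.098.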

How the data were processed

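The deposited table held raw whole-number read counts per Ensembl gene for 6 liver libraries, with no normalization. The submitters' processing notes name the genome build GRCm38 and the tools STAR 2.6.1a, featureCounts and DESeq2 1.26.0. The annotation release, strand setting and treatment of reads with several matches are not given in the sources used here. Per the labels' protocols, polyadenylated RNA was read in paired ends from a strand-marking TruSeq kit. Columns matched samples by name, and 40254 identifiers had a symbol. Exon lengths and coordinates came from GENCODE M21.

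AL/NP was compared with control by edgeR's quasi-likelihood test (version 4.0.16, R 4.3.3) with TMM scaling and a robust fit. The filterByExpr filter, at a minimum count of 10, kept 15939 genes. Benjamini-Hochberg adjustment ran over all of them, and the threshold was 0.05. Each SE was obtained from the fold change and its F statistic. The biological coefficient of variation was 23.3%. The script was tested on simulated data. No pair of libraries was closer than a chi-square of 30.6 per degree of freedom, so none was a duplicate. Named genes were the 9 genes, Tgfbr1, the 3 genes with the smallest p in each direction of each pathway list where under 0.05, and 8 genes set by name. The genes most like Tgfb1, Ccn1 and Ccn2 were added. Values of 2 genes that this rule named are not reported here. The 9 genes, lists and tests were chosen with earlier results of these data known. Alternatives were DESeq2 1.42.0, limma-voom (limma 3.58.1), other scalings and filters, no robust estimation, a replicate block and each library left out.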

Additional observations from a re-analysis of the deposited data

How the results depend on the processing

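The count of genes called over the whole table was 13. It was 0 with library totals as the only scaling, 0 with at least 50 counts in 3 libraries and 0 without robust estimation (2254, 2786 and 3133 genes at an unadjusted p under 0.05). It was 747 with every gene of at least 1 count, and 844 by DESeq2. With each library left out it was 0 to 4, with 2229 to 3022 genes at an unadjusted p under 0.05, in fits with fewer samples. Of the 9 genes, 0 were called, against 3 with every gene of at least 1 count (Tgfb1, Tgfbi and Ccn1) and 4 by DESeq2. The number at an unadjusted p under 0.05, 5, lay between 4 and 6 over all 14 alternatives. Tgfb1, Tgfbi, Ccn1 and Ccn2 were among them in each, and Thbs1 was not with every gene of at least 1 count or without any one of AL/NP replicate 3 and control replicates 2 and 3. With library totals as the only scaling, the median of all genes shifted to 0.13. The log2 fold change of Tgfb3 turned to -0.031 with the replicate block and -0.041 by limma-voom. Over the fits that left out 1 library it ran from -0.41 (AL/NP replicate 3 out) to 0.38, and it was also below 0 with control replicate 2 out (-0.059). Ltbp1 ran from -0.35 (AL/NP replicate 3 out) to 0.62, and was below 0 with control replicates 1 (-0.00765) and 2 (-0.14) out. Col1a1 ran from -1.31 to 0.102, the latter with control replicate 3 out. The cause of these changes was not tested. Replicate numbers did not pair the libraries: deviations of same-numbered libraries correlated at -0.055, 0.043 and 0.075, and not every library correlated best with its own number. With the replicate block 23 genes were called and 0 of the 9. The block cannot change the mean differences of the 3 ratios, which are the same by construction. The exact sign-flip p within the block was 0.25 for Tgfb1 to Tgfb3, the smallest that 3 pairs allow, and 0.5 for the other 2. Depth limits Tgfb2 most, at 18 to 72 counts a library.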
